A study of Caenorhabditis elegans with 3 samples.

Results

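The nhr genes of Caenorhabditis elegans were examined for binding of the EGL-27 protein in young larvae. The members were all protein-coding genes named nhr- followed by digits in the Ensembl annotation of the WBcel235 genome, 269 of 19973 protein-coding genes on the nuclear chromosomes. Binding was measured by chromatin immunoprecipitation followed by sequencing (ChIP-seq) in whole L1 larvae of mixed sex, in 3 biological replicates of a single group, with no other genotype, stage or treatment to compare. The strain, OP177, carries the unc-119(ed3) mutation on chromosome III and the transgene wgIs177, which adds EGL-27 with a C-terminal GFP-FLAG tag, so the tagged protein comes from an integrated transgene in one line and all 3 replicates share that line. The regions describe the whole animal, so binding in different cell types cannot be told apart. All 3 replicates were set against 1 shared control alignment, and the age of the larvae is given only as the L1 stage. Read depth is unknown because the lists hold no counts.

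Nuclear hormone receptors are transcription factors with a zinc finger domain that binds DNA and a ligand-binding domain that can sense steroids, fatty acids or other small molecules. The nematode family is much larger than that of insects or vertebrates, mainly through expansion from an HNF4-like ancestor, while a minority of members have clear counterparts in other animals. Studied members act in molting, fat and sterol metabolism, detoxification, hypoxia and neuronal identity. EGL-27, the protein that was precipitated, has a GATA-type zinc finger and is related to the MTA subunits of NuRD chromatin complexes.

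Each region carries a signal value, a height over the control as the authors computed it, whose scale is unstated, so values are compared only within a list. The list that passed the authors' irreproducible discovery rate (IDR) threshold held 524 peaks with signals from 28.9 to 166.1, and these were exactly the highest 524 regions of the list made from the 3 replicates together (the pooled list). Relaxed lists of peaks and background held 30000 regions in the pooled list and in replicates 1 and 2, and 13516 in replicate 3. Within 20 kb of egl-27 lay 15 IDR summits, and no member discussed here lies there. The transgene also carries this locus, so these summits cannot serve as a check of the precipitated protein. A region was assigned to a gene when its summit, the position of highest signal, fell in a promoter window (1000 bp before to 200 bp after the annotated start) or inside the gene body.

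EGL-27 had IDR peaks at 10 nhr genes: nhr-1 (WBGene00003600), nhr-3 (WBGene00003602), nhr-19 (WBGene00003618), nhr-34 (WBGene00003627), nhr-46 (WBGene00003636), nhr-48 (WBGene00003638), nhr-57 (WBGene00003647), nhr-58 (WBGene00003648), nhr-68 (WBGene00003658) and nhr-112 (WBGene00003702). These 10 were 3.72% of the 269 members (95% exact interval 1.8 to 6.73), and 2.06% of all protein-coding genes met the same rule. The promoter window held a summit in 7 members (2.6%, 1.05 to 5.29), beside 1.58% of all genes, and the gene body in 5 members (1.86%, 0.606 to 4.28), beside 0.571% of all genes. Both nhr-3 and nhr-48 had a promoter summit and a summit inside the gene. The intervals cover only the counting of genes, and those for the promoter window and for both places together include the share of all genes. When any overlap of the region with the gene body counts instead of the summit, 6 members have one (2.23%, 0.823 to 4.79), beside 1.11% of all genes, and that interval then includes the share of all genes too. Keeping only IDR peaks with a region among the highest 524 of both remaining lists when replicate 1, 2 or 3 is left out gave 5, 6 and 5 members with either place, 3, 2 and 4 with a promoter summit and 2, 5 and 2 with a summit in the body. Those sets held 216, 200 and 187 of the 524 peaks, and 0.756%, 0.721% and 0.691% of all genes then had either. The intervals of the member shares with either were 0.606 to 4.28, 0.823 to 4.79 and 0.606 to 4.28. The matching shares of all genes were 0.561%, 0.501% and 0.516% for the promoter and 0.205%, 0.245% and 0.19% for the body.

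The windows around the following summits are printed because they carry the 4 highest member peaks, the peak with most GA repeats and all 3 peaks with an E-box. Each runs 100 bp either side of the summit on the plus strand of ce11, read from the RefSeq sequence of the same assembly, and the windows of nhr-58 and nhr-68 are shortened to leave out annotated exons. Capitals mark GAGAGA, its reverse complement TCTCTC and the E-box CACGTG, and a longer capital run is a GA match that overlaps itself and is counted once.
nhr-3 chrX:14560310-14560510: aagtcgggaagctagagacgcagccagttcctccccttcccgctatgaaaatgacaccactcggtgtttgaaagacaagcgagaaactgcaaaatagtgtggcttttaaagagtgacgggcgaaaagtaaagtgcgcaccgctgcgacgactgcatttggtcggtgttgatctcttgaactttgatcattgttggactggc
nhr-19 chrII:9603509-9603709: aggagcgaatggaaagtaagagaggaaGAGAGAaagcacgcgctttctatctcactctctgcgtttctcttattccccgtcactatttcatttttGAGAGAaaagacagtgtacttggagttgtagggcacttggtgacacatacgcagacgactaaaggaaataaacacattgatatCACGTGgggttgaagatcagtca
nhr-48 chrX:15707522-15707722: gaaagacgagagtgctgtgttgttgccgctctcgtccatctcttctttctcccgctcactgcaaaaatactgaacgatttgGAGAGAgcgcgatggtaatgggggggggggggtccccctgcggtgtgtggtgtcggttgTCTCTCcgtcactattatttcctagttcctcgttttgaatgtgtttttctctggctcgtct
nhr-58 chrV:532097-532258: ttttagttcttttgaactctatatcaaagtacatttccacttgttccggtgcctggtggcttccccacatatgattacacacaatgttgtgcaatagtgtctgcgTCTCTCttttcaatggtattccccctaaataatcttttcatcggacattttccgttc
nhr-1 chrX:17513668-17513868: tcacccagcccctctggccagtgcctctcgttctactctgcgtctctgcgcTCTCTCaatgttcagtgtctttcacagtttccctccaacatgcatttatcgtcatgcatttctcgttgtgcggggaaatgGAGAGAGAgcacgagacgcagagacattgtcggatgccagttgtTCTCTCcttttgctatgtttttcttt
nhr-68 chrV:11572991-11573136: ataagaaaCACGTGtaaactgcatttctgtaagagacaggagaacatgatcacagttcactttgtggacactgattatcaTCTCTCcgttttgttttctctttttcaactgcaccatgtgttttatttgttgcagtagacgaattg
nhr-34 chrIV:9671074-9671274: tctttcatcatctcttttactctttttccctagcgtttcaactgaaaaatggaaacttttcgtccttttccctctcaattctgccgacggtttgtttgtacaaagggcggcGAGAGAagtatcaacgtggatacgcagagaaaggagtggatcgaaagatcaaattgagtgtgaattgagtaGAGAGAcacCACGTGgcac

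The share of member peaks with a GA repeat was near that of all IDR peaks. GAGAGA, searched on both strands within 100 bp of the summit, lay at 8 of 13 (61.5%, 31.6 to 86.1), beside 296 of all 524 IDR peaks (56.5%). The same motif was present at 20.6% of the 441 other pooled regions of nhr genes, at 20% of 7505 other pooled regions in promoter windows of any gene, and in 11.9% of windows of the same length centred 300 bp upstream of every protein-coding gene start. The nhr-1 promoter window held 3 matches, those of nhr-19, nhr-34 and the nhr-48 promoter 2 each, and those of nhr-46, nhr-58, nhr-68 and the nhr-48 intron 1 each. The peaks without the motif were all 3 of nhr-3 and those of nhr-57 and nhr-112.

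CACGTG, the palindromic E-box bound by many basic helix-loop-helix proteins, lay at 3 member peaks, those of nhr-19, nhr-34 and nhr-68 (23.1%, 5.04 to 53.8), beside 11.3% of all IDR peaks, 6.12% of other pooled regions of nhr genes, 4.34% of other pooled regions in promoter windows and 3.18% of windows upstream of all genes. Each of these 3 windows also held the GA repeat. The sequence AGGTCA, the core hexamer recognised by many nuclear receptors, was found at 0 of 13 member peaks, which allows a share of up to 24.7%, beside 5.34% of all IDR peaks and 5.14% of upstream windows. AAGTCA, a related hexamer, was likewise at 0 of 13 and at 5.34% of IDR peaks and 9.22% of upstream windows. Of 2 GATA-type sites, TGATAA lay at 1 member peak, that of nhr-68, beside 7.25% of IDR peaks and 19.7% of upstream windows. AGATAA lay at 0 of 13, beside 7.82% of IDR peaks and 12.9% of upstream windows. Base composition differs between these sets and was not corrected for: the GC content of the member windows ran from 38.3% to 52.2% with a median of 43.3%, and the median of all IDR peaks was 47.3%.

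**Figure D1:**
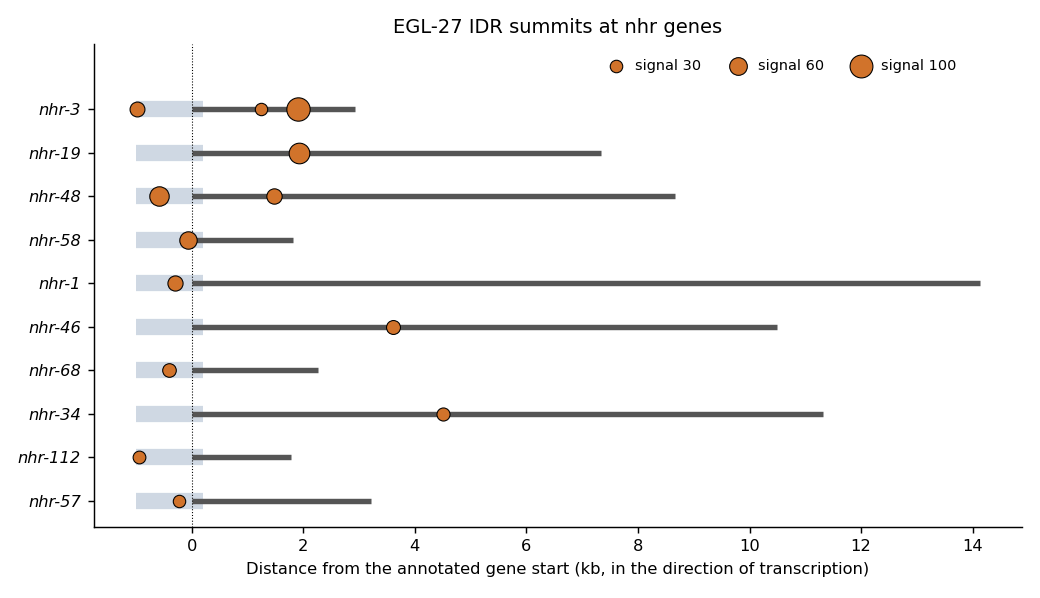
The 10 nhr genes with an IDR peak, ordered by their highest signal, drawn from the annotated start (0) in the direction of transcription, in kb. Dark bars are gene bodies, pale bars the promoter windows, and circles the 13 summits with an area in proportion to the pooled signal. The summits of nhr-3 at 1906 bp and nhr-19 at 1917 bp lie inside the genes and have the largest circles.

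Among members with clear counterparts in other animals, nhr-48 carried the highest promoter peak of the family. NHR-48 belongs with DAF-12 and NHR-8 to the group of receptors most like the vertebrate vitamin D and xenobiotic receptors. Its upstream summit lay 591 bp before the start (X from 15707534 to 15707644), with a pooled signal of 72.4 and rank 40 of 524. The replicate signals there were 15.6, 37.8 and 22.9 for replicates 1, 2 and 3, at ranks 120, 16 and 80 of their own lists, so each replicate placed it among its strongest regions. A separate summit lay in an intron 1469 bp after the start (signal 45.1, rank 159), with replicate signals of 16.4, 9.03 and 18.5. Replicates 1 and 3 ranked this intronic site 102 and 157, whereas replicate 2 ranked it 2457.

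The other 9 members of the conserved list (nhr-6, nhr-8, nhr-23, nhr-25, nhr-41, nhr-67, nhr-85, nhr-91 and nhr-111) had no IDR peak, though several came close to its lower limit. The list thus had 1 gene of 10 with an IDR peak, beside 2.06% of all genes, and was not tested against that share. The member nearest below the limit was nhr-41, related to the insect receptor DHR78, with a pooled signal of 28.1 at rank 562, in its gene body 1998 bp from the start. Replicates 1 to 3 gave this site 7, 9.16 and 8.12, at ranks 1996, 2320 and 1065. The highest pooled regions at nhr-25, the FTZ-F1 counterpart needed for molting and epidermal development, and at nhr-23, the DHR3 counterpart needed for molting, had signals of 25.7 and 25.6. Both lay inside the genes, at 612 and 2693 bp. Replicate 2 placed the nhr-23 site at rank 215 with a signal of 18, replicate 3 at rank 2436 with 5.36, and replicate 1 listed no region within 200 bp of it. In replicate 3 a different nhr-23 region, 164 bp after the start, reached rank 509 with a signal of 11.2.

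The highest pooled regions were lower at nhr-8, which acts in sterol and bile acid homeostasis, and at nhr-85, related to E75 and the Rev-erb receptors, with 18.4 each. They were 11.6 at nhr-6 (the NR4A counterpart), 10.9 at nhr-91 (the GCNF counterpart) and 10.6 at nhr-67 (the tailless counterpart). Only for nhr-111, of this list, did the pooled file hold no region. The median over the 10 conserved members was 18.4, against 7.61 over the 246 members in neither of the lists of studied genes, and the conserved genes were also longer, with a median of 5501 bp against 2226 bp. The part of gene length in that difference was not tested.

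Of 13 members with studied roles in metabolism or stress, nhr-68 and nhr-57 had IDR peaks, both in the promoter window. Over all genes 2.06% had an IDR peak and 1.58% had one in the promoter window. This short list was not tested against those shares. NHR-68 acts with NHR-10 to turn on the propionate shunt when vitamin B12 is low. The nhr-68 summit lay 404 bp before its start (V from 11572858 to 11573213, signal 35.6, rank 323), and only 46 bp before the start of the neighbouring protein-coding gene H12C20.7, so the peak cannot be given to either gene alone. Replicates 1 and 2 each gave 16 there, inside the highest 524 regions of both, and replicate 3 gave 6.85 at rank 1505.

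Expression of nhr-57 is widely used as a readout of the hypoxia factor HIF-1. Its summit lay 220 bp before the start (V from 4131491 to 4131846) with a pooled signal of 29.6 at rank 492, near the bottom of the IDR list. Replicate 1 ranked the site 133 with a signal of 15.3. Replicates 2 and 3 gave 6.95 and 9.61, at ranks 6642 and 749, so the peak stood out in replicate 1 and not in the others.

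The remaining 11 members of this list had no IDR peak. The highest of them were nhr-31, needed in the excretory canal for expression of vacuolar ATPase genes, with a pooled signal of 25.9 inside the gene (11.9 in replicate 1, 7.6 in replicate 3 and no region within 200 bp in replicate 2), and nhr-49, a regulator of fat desaturation and beta-oxidation, with 23.9 at 304 bp before its start. At the nhr-49 site replicates 1 to 3 gave 3.52, 10.8 and 8.62, at ranks 14338, 1212 and 936. Pooled values were 19.4 at nhr-66, 16.4 at nhr-62, 10.8 at nhr-80, 10.2 at nhr-114, 10 at nhr-10, 8.61 at nhr-86 and 5.99 at nhr-69, and the pooled list held no region at nhr-13 and nhr-64. Apart from nhr-69 and the pair without a region, these values lay above the median of 7.87 over all 269 members. The genes of this list were also longer, with a median of 4343 bp against 2309 bp over the family. The part of gene length was not tested.

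The 246 members outside both lists, most of the 269, included 7 with an IDR peak, beside 2.06% of all genes. These 7 held 9 of the 13 peaks of the family. The highest was in an intron of nhr-3, 1906 bp after its start (X from 14560232 to 14560587), with a signal of 104.5 at rank 5 of 524. Replicate signals were 37.9, 27.5 and 42.7, at ranks 3, 51 and 5, and the replicate summits lay within 49 bp of the pooled one. This was the only member site ranked in the highest 10 by more than 1 replicate.

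Around the same gene were 2 weaker peaks. A summit 976 bp before the start (X from 14557350 to 14557705, signal 42.4, rank 194) lay on the noncoding gene H01A20.2, whose exon covers 191 of the 201 bases around it, and within 500 bp of the noncoding gene H01A20.5, so this peak cannot be given to nhr-3 alone. Replicates 1 and 2 gave it 18 and 18.7 and replicate 3 gave it 7.73, at rank 1189. The other, in an intron 1244 bp after the start, had the lowest signal of the 13 (29.4, rank 500), and with 5.22, 10.6 and 9.98 it was the single member peak in the highest 524 of no replicate.

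Next to nhr-3 in height was nhr-19, with a summit in an intron 1917 bp after its start (II from 9603431 to 9603786, signal 81.6, rank 27). Replicates gave 25.1, 18.3 and 38.3, at ranks 19, 201 and 8. The nhr-58 summit lay 62 bp before the start, the closest of all (V from 532019 to 532374, signal 58.2, rank 80), with replicate values of 13.2, 25.5 and 20.8 at ranks 232, 73 and 107. An annotated pseudogene lay within 500 bp of it. All 3 replicates had both sites among their highest 524 regions.

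The nhr-1 promoter peak was 295 bp before the start (X from 17513590 to 17513945, signal 44.1, rank 173). It was strong in replicates 2 and 3, with 18.3 and 18 at ranks 202 and 165, and weak in replicate 1, with 4.55 at rank 7842. Summits in nhr-46 (IV, 3604 bp after the start, signal 37.2) and nhr-34 (IV, 4498 bp after the start, signal 32.8) were in introns. The nhr-34 summit lay 1496 bp after the nearest annotated transcript start of that gene. At nhr-46 the replicates gave 15.6, 13.7 and 13.8, with rank 527 in replicate 2. The nhr-34 values were 11.7, 6.03 and 12, with rank 10275 in replicate 2. The nhr-112 summit, 943 bp before the start (V from 16724609 to 16724964, signal 31.2), had 15.3, 7.58 and 8.77, and ranked 131 in replicate 1 but 4899 and 909 in replicates 2 and 3.

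**Figure D2:**
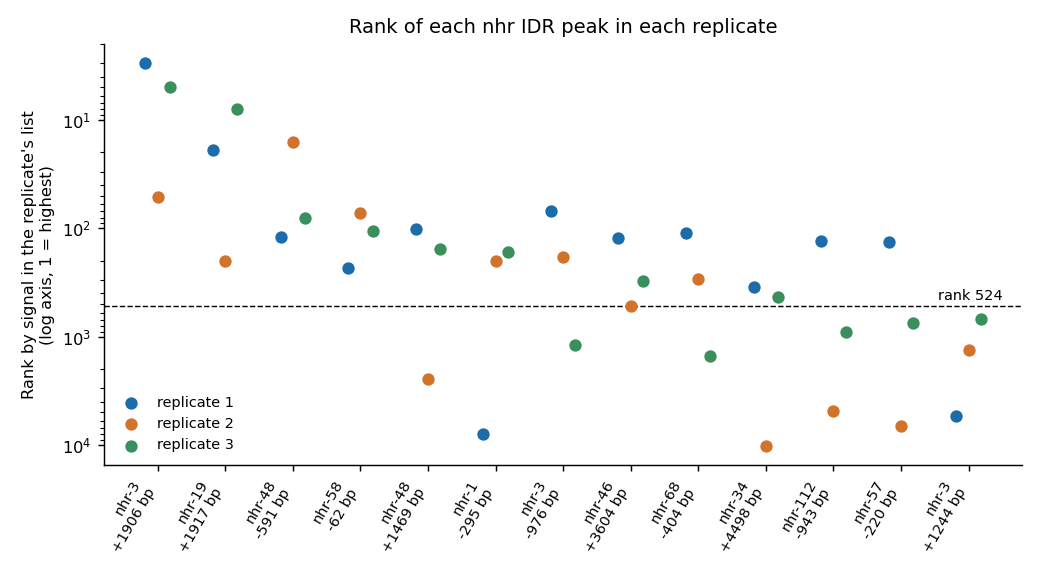
Rank of the strongest region within 200 bp of each of the 13 nhr IDR summits in the list of each replicate (log axis, 1 at the top), ordered by pooled signal, with the signed distance in bp of the summit from the gene start. The dashed line marks rank 524, the length of the IDR list, and the 4 leftmost peaks lie above it in all 3 replicates.

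Agreement of the replicates at member sites was partial, as it was for IDR peaks of any kind. Of the 13 peaks, 4 had a region in the highest 524 of all 3 replicates within 200 bp (nhr-3 at 1906 bp, nhr-19, nhr-48 upstream and nhr-58), 6 in those of 2 replicates, 2 in those of 1 and 1 in none. For all 524 IDR peaks the share with all 3 was 26%, against 30.8% of member peaks. Replicate 1 held 11 of the 13 sites (84.6%, against 57.8% of all IDR peaks), replicate 2 held 7 (53.8% against 62%) and replicate 3 held 8 (61.5% against 66%). The IDR and replicate lists rest on the same libraries, so these overlaps are a description and no independent support. The median pooled signal of the member peaks was 42.4 and that of all IDR peaks 38.3, and 7 of the 13 lay above the latter.

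Counted gene by gene in the replicate lists alone, 22 members had a region among the highest 524 of at least 1 replicate (8.18%, 5.2 to 12.1, beside 3.9% of all genes). These were 15 members in replicate 1 (5.58%, beside 1.95% of all genes), 11 in replicate 2 (4.09%, beside 1.96%) and 10 in replicate 3 (3.72%, beside 1.96%). The 5 members found in each of the 3 were nhr-3, nhr-19, nhr-46, nhr-48 and nhr-58 (1.86%, 0.606 to 4.28, beside 0.591% of all genes). For nhr-46 the region of replicate 2 lay 1684 bp after the start, away from the IDR summit. Of the 22 members 12 had no IDR peak, and 11 of those 12 were found in 1 replicate only, the exception being nhr-23 with different regions in replicates 2 and 3.

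Below the IDR threshold most nhr genes still held listed regions. A relaxed region of the pooled list lay at 197 members (73.2%, 67.5 to 78.4), beside 64% of all genes. Replicate 1 had one at 202 members (75.1%, beside 64.5%), replicate 2 at 186 (69.1%, beside 63.9%) and the shorter list of replicate 3 at 116 (43.1%, beside 35.8%). In none of the 4 lists was a region found at 26 members (9.67%, 6.41 to 13.8, beside 13.5% of all genes). Taking genes without a region as 0, the median highest pooled signal was 7.87 in members and 6.96 in all genes, and 34.6% of members against 24.7% of all genes reached a signal of 10. Fewer members were short, with 34.6% under 2 kb against 49.3% of all genes. A pooled region lay at 58.1% of members under 2 kb, beside 49.8% of all genes of that length. The shares were 77.5% and 72.1% from 2 to 5 kb, and 93.1% and 87.5% from 5 to 10 kb. At 10 kb or more they were 100% and 95.7%. The part of gene length in the family values was not tested. These relaxed lists include background by construction, so a listed region is no call of binding. A region can also count for more than 1 neighbouring gene, whereas the intervals treat genes as independent.

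The 10 members with the highest pooled signal and no IDR peak were nhr-41, nhr-154, nhr-14, nhr-31, nhr-25, nhr-23, nhr-43, nhr-105, nhr-21 and nhr-49, with signals from 28.1 down to 23.9. The IDR peaks just above them were those of nhr-57 at 29.6 and nhr-3 at 29.4. Promoter windows held the sites of nhr-154 (27.2, 192 bp before the start), nhr-14 (26.3, 168 bp), nhr-105 (24, 280 bp) and nhr-21 (24, 41 bp), and the nhr-43 summit (24.4) was 28 bp after the start. The nhr-154 site reached the highest 524 of replicate 1, with 12.7 at rank 264, but ranked 5474 and 4375 in replicates 2 and 3. At nhr-14, a gene linked to iron uptake and pathogen response, the 3 replicates gave 7.01, 7.07 and 6.11, at ranks 1979, 6207 and 1883.

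**Figure D3:**
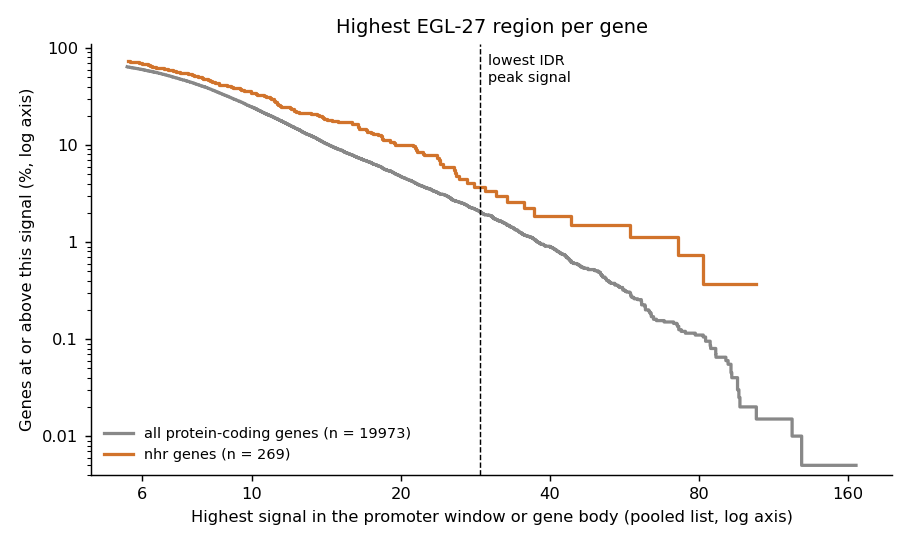
Share of genes (percent, log axis) whose highest region in the promoter window or gene body reaches a given pooled signal (log axis), for the 269 nhr genes and all 19973 protein-coding genes. At a signal of 20 the curves stand at 10% of members and 4.75% of all genes, and the dashed line marks the lowest IDR peak signal, 28.9.

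Gene length and place differ between the family and the genome and move with these shares. Chromosome V held 167 of the 269 members (62.1%), against 25% of all protein-coding genes, and 126 members had another nhr start within 5 kb. On V, 4 members had an IDR peak (2.4%, 0.656 to 6.02), beside 0.941% of all genes there. X held only 23 members, of which 3 (nhr-1, nhr-3 and nhr-48) had IDR peaks (13%, 2.78 to 33.6), beside 2.75% of all X genes. IV had 2 of 33 (beside 1.86%), II had 1 of 15 (beside 1.94%), and the 23 members on I and 8 on III had none, beside 2.81% and 3.03% of all genes there. The 3 X genes carried 6 of the 13 peaks. With 0 to 4 genes per chromosome, the counting intervals of the chromosomes overlap.

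**Figure D4:**
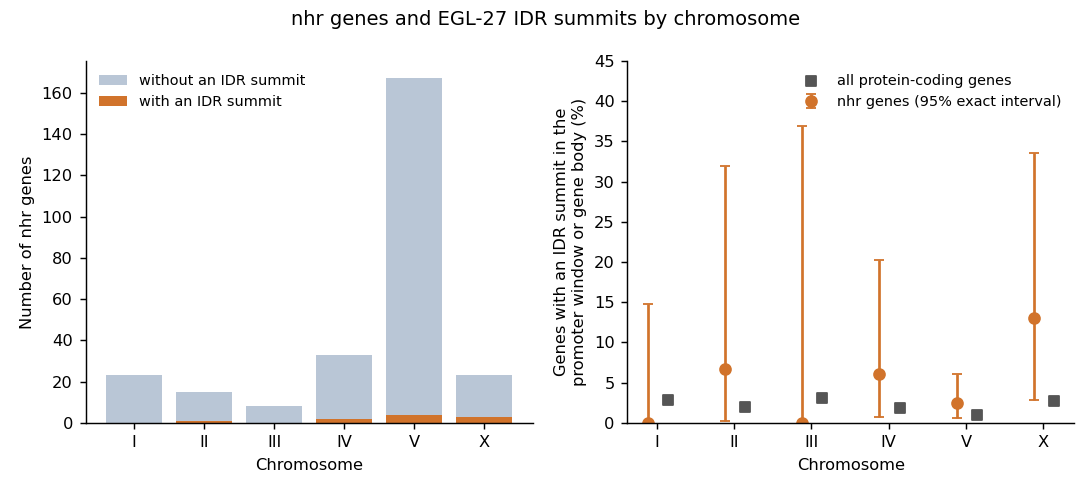
Left, number of nhr genes on each chromosome, with those holding an IDR summit in orange at the base of the bar. Right, percent of genes with such a summit for nhr genes (circles, bars are 95% exact intervals) and for all protein-coding genes (squares). V has the tallest bar, 167 genes, and X the highest nhr share, 13%.

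Taking the outer 25% at either end of each autosome as its arms, 151 members lay on arms, of which 3 had an IDR peak (1.99%, beside 1.52% of all arm genes). In the centres 4 of 95 had one (4.21%, beside 2.29%). By length, 2 of 93 members under 2 kb had one (2.15%, beside 1.42% of all genes of that length), 3 of 138 from 2 to 5 kb (2.17%, beside 1.84%), 2 of 29 from 5 to 10 kb (6.9%, beside 3.67%) and 3 of 9 of at least 10 kb (33.3%, 7.49 to 70.1, beside 6.21%). The median length was 2309 bp over the family, 2027 bp over all genes and 5280.5 bp over the 10 members with an IDR peak. Of the 3 long members with an IDR peak, nhr-34 and nhr-46 had it in the gene body and nhr-1 in the promoter window, and the part of gene length was not tested. The longest member, nhr-27 on X (102756 bp), had 0 IDR summits and 39 pooled regions in its body, the highest with a signal of 21.2.

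The median highest pooled signal was also higher on X than on the other chromosomes. It was 17.1 over the 23 members on X, against 8.04 over all X genes, and 7.24 over the 167 members on V, against 6.47. A pooled region was listed for 22 of the 23 X members (95.7%, against 72.4% of X genes), for 68.3% of the 167 on V (against 58.6%) and for 13 of 23 on I (56.5% against 66.9%). Over all members the median highest signal rose with gene length, from 6.52 under 2 kb to 7.99, 11.6 and 21.2 in the longer classes. The part of gene length in these X values, and in the share of X members with an IDR peak, was not tested.

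Among the other receptors and the genes that work with nuclear receptors, daf-12 and din-1 had IDR peaks. Both are long genes, of 30968 and 18840 bp. An IDR summit was found at 6.21% of all genes of at least 10 kb, beside 2.06% of all genes. The part of gene length was not tested. Among 5 receptors with other names (daf-12, fax-1, odr-7, sex-1 and unc-55), daf-12 had one. DAF-12 is the receptor for dafachronic acids that governs the choice between reproductive growth and dauer. Its summit lay in an intron 1802 bp after the start (X from 10637532 to 10637887, signal 43, rank 188), with replicate signals of 15.7, 17.3 and 13.5 at ranks 119, 239 and 323. All 3 replicates had it among their highest 524.

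Of 4 coregulators, din-1, which encodes a SHARP-like corepressor that binds DAF-12, had 2 IDR peaks. The higher lay 755 bp before its start (II from 11634186 to 11634541, signal 84.3, rank 22), with 22.7, 25 and 31.8 in the replicates at ranks 32, 77 and 20. The lower, in an intron 668 bp after the start, had a signal of 30.3, with 8.41 and 11 in replicates 1 and 3 and no region within 200 bp in replicate 2. The acetyltransferase gene cbp-1 reached 26.3, while the NCoR-like gei-8 (8.59) and the Mediator gene mdt-15 (8.19) were lower.

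No IDR peak was found at 8 genes of ligand synthesis and sterol transport, 9 metabolic target genes or 7 molting genes. The median of their highest pooled signals was 10.5, 9.02 and 9.27. For the cytochrome P450 gene daf-9, which makes dafachronic acid, the highest was 12.1, and for the stearoyl desaturase gene fat-6 it was 14.6. Of the other fat genes on that list, fat-5 had 6.69 and fat-7 had no region in the pooled list. These counts of 0 stand beside the 2.06% of all genes with an IDR peak, so lists of 7 to 9 genes cannot show a lower share.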

How the data were processed

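ChIP-seq region lists for EGL-27 in L1 larvae (1 group, 3 biological replicates, numbered per the labels) were used on build ce11. The authors deposited, per the file headers and labels, relaxed lists (per replicate and pooled) and 1 list thresholded by IDR. The deposited signal value is a height against control on an unstated scale, used to rank and describe regions within a list. The deposited −log10 q-value is the same in all IDR peaks and was not used. The deposited summit offset gave each region's position. The sources used here name no aligner or peak caller version, and the control alignment, signal tracks and ce10 lists were not analysed here.

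Genes came from Ensembl release 115 (WBcel235, the assembly of ce11), 0 regions ran past a chromosome end, and coordinates are 1-based. Shares carry exact 95% binomial intervals, which cover counting only. With 1 group, no test between conditions was made. Top lists are the 524 regions of highest signal in each replicate, and replicate values at a peak are the strongest region within 200 bp of its summit. Motifs were searched on both strands. Members, lists and motifs were chosen with earlier results of these data known. Named genes were members with an IDR peak, all genes of the conserved and metabolic lists, the 10 highest members without an IDR peak, other list genes with an IDR peak, and genes sharing a peak. Other genes named with values (nhr-27, nhr-88, nhr-20, nhr-32, nhr-17, cbp-1, gei-8, mdt-15, daf-9, fat-5, fat-6 and fat-7) fall outside that rule and were chosen after their values were seen. Alternatives were other windows, positions, peak sets, top lists and replicate subsets. Assignment and motif search were tested on simulated data. Python 3.11.15, numpy 2.4.6, scipy 1.17.1 and matplotlib 3.10.9 were used.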

Additional observations from a re-analysis of the deposited data

How the results depend on the processing

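Of 61 alternative values, 44 kept within 1.5 times the reported count, or within the spread of the reported value. For motif shares that spread was the exact interval over 13 peaks (31.6 to 86.1 for GAGAGA, 0 to 24.7 for AGGTCA). Few alternatives could leave so wide an interval. For the median signal it was the standard deviation of the medians of the 3 replicate lists (2.43), whose scales differ. Leaving out a replicate cannot lower the count of genes with a top-list region in all replicates kept. The 44 is therefore no measure of how firm the results are. With promoter windows of 500 bp upstream 4 nhr genes had a promoter summit (1.49%, beside 1.15% of all genes), and with 2000 bp 11 (4.09%, beside 2.2%), instead of 7 with 1000 bp. A summit in either place was then at 9 members with 500 bp (3.35%, 1.54 to 6.26, beside 1.66% of all genes). With 2000 bp it was at 14 (5.2%, 2.87 to 8.58, beside 2.67%). Among the IDR peaks of above-median signal there were 4 genes with a promoter summit, 3 with a summit in the gene body and 5 with either, instead of 7, 5 and 10, beside 0.716%, 0.285% and 0.956% of all genes. Giving each summit to the gene with the nearest start, with no window, named 16 members instead of 10 (5.95%, 3.44 to 9.48, beside 2.27% of all genes). Leaving out each replicate in turn, that is, keeping IDR peaks with a region in the top list of each remaining replicate, left 187 to 216 of 524 peaks and so fewer genes: 2 to 4 with a promoter summit, 2 to 5 with a summit in the body and 5 to 6 with either. In these smaller sets 1.86% to 2.23% of members had either, beside 0.691% to 0.756% of all genes. The median highest signal over members was 3.58, 4.63 and 0 in the lists of replicates 1, 2 and 3 instead of 7.87 in the pooled list, on scales that differ between lists, and 153 of 269 members have no region in the list of replicate 3. GAGAGA was at 58.8% to 85.7% of member peaks and AGGTCA at 0 under all settings run. No paired analysis was possible because there is a single group. Depth is unknown, so how far it limits the weaker sites cannot be given.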

Other observations

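Beyond the windows used above, 9 further IDR peaks had an nhr gene as the nearest start, and they were noticed after their values were seen. They were 9 of the 164 IDR peaks outside every promoter window and gene body, whose nearest starts belonged to 147 genes in all. That is 3.35% of nhr genes (1.54 to 6.26), beside 0.736% of all genes. All 9 lay upstream of that gene (129 of the 164 did), from 1379 to 8137 bp before its start. The choice of these peaks had left out the first 1000 bp upstream and all gene bodies. The highest was 8137 bp before nhr-1 (X from 17505887 to 17505983, signal 84.7, rank 20), with 19.0, 31.3 and 38.0 in replicates 1 to 3 at ranks 59, 32 and 9. It is higher than the nhr-1 promoter peak, and all 3 replicates ranked it among their highest 524 regions. Next came nhr-88 (2560 bp, signal 64.5, with 12.3, 20.3 and 32.2 in the replicates).

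The peak 1379 bp before nhr-10, the partner of nhr-68 in the propionate shunt, had a signal of 48.3 (III from 7116639 to 7116994) and ranked 48, 6024 and 55 in the replicates. Upstream peaks of nhr-14 (1450 bp, signal 51.8) and nhr-21 (1480 bp, 39.5) stood beside the lower promoter regions of those genes. The others were nearest to nhr-20 (4630 bp, 42.2), nhr-32 (1593 bp, 34.3), nhr-34 (2030 bp, 32.4) and nhr-17 (2601 bp, 30.3). GAGAGA lay within 100 bp of 7 of the 9 summits, all but those of nhr-14 and nhr-32, beside 64.6% of the 164. The nearest start is no evidence that a peak acts on that gene, and no correction was made for the long intergenic stretches around some members.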
